A study of Arabidopsis thaliana with 3 samples.

Results

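Nuclear genes of the photosynthetic apparatus were followed in Arabidopsis thaliana seedlings through the 5′ ends of their transcripts. The list held 55 genes for subunits of photosystems I and II, light harvesting proteins, electron transport, the chloroplast ATP synthase, the Rubisco small subunit and Rubisco activase, chosen by locus. The deposited table contained 18 of them among 6814 genes, and the other 37 were not analysed here. The 18 were 2 of 12 photosystem I genes, 2 of 11 photosystem II genes, 2 of 5 antenna genes of photosystem I and 7 of 14 antenna genes of photosystem II. Electron transport was represented by 1 of 6 genes, the ATP synthase by 1 of 2, and Rubisco with its activase by 3 of 5. Where several isoforms of a gene were listed, the most-read transcript was used.

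The libraries came from total RNA of whole seedlings, 10 days old, wild type and of the Col-0 accession, with no mutant or transgenic line among them. White light, far-red-enriched light for 45 min and far-red-enriched light for 90 min gave 1 library each, and the far-red treatment resembles the light under a canopy. The method, called PEAT for its paired-end reads of transcription start sites, captures the 5′ ends of transcripts. The wider study concerns a microprotein from the shade avoidance gene ATHB2. Each condition has 1 library, so no difference has a replicate check, and the tests given here compare libraries and not conditions.

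In the thylakoid membrane, light harvesting complexes pass excitation energy to photosystems I and II, which drive electrons from water through the cytochrome b6f complex and plastocyanin to ferredoxin. The resulting proton gradient powers the ATP synthase, and ATP and reductant are used by the Calvin cycle, whose carboxylating enzyme is Rubisco. The chloroplast makes part of these proteins itself, while the proteins described here are encoded in the nucleus, translated in the cytosol with an N-terminal transit peptide and imported. Light raises transcription of many of these genes through phytochromes and cryptochromes, and light enriched in far-red lowers the active form of the phytochromes and releases the growth programme of shade avoidance.

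The table totals were 3440656 reads in white light, 4373900 after 45 min and 4125024 after 90 min. The 18 photosynthesis genes held 21.9% of these reads in white light, 23.7% after 45 min and 22.0% after 90 min, and 8 of the 10 genes with the most reads in the table were among them. Their reads over the 3 libraries ran from 5242 for Lhca5 to 545705 for RBCS3B, with a median of 112756, against a median of 521 for all genes. Counting error was accordingly small, at most 7.42% of a ratio between libraries in any gene of the list. Read sharing between near-identical copies is a separate limit. CAB3 (also called LHCB1.2), LHB1B2 (LHCB1.5), LHCB2.3, RBCS2B and RBCS3B belong to families with near-identical coding sequences, and how the authors' alignment divided such reads is not given in the sources used here. The annotated spans of TLP18.3, Lhca5, LHB1B2, LHCB2.3, LHCB3, LHCB6 and RCA overlap other annotated genes. Their values are uncertain to that extent, although the 4 overlapping genes that are in the table had at most 288 reads in any library. The genes overlapping Lhca5, LHCB6 and RCA are not in the table, nor are non-coding genes overlapping TLP18.3 and LHB1B2. Their reads are therefore not known.

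Whole seedlings hold roots and shoots, so a list of 9 genes known for expression in roots was looked up. Of these 1 was in the table, the iron transporter IRT1, with 168 reads per 1000000 reads of the table (RPM) in white light, 103 RPM at 45 min and 154 RPM at 90 min. Values of 1 gene cannot show how much root RNA each library holds. In whole seedlings, fewer cells of a type and less RNA per cell cannot be told apart.

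The table pairs a first start window with a second one further into the transcript. All 18 photosynthesis genes had exactly 1 second window, against 61.4% of all genes. Their coding sequences were shorter, with a median of 799.5 bases against 1299 over all genes. The part of length in the number of windows was not tested. The second window left between 33.6% (Lhca5) and 86.8% (PETC) of the coding sequence downstream, with a median of 61.0% in the photosynthesis genes and 47.4% over all genes. Where a gene had several second windows, position and domains are those of the second window with the most reads. The second windows lay near the beginning of the coding sequence in PETC, where 599 of 690 bases were left, CAB3 (658 of 804), PSAO (334 of 423), ATPC1 (884 of 1122) and LHCB6 (586 of 777). They lay beyond the middle in Lhca5 (259 of 771), LHCB4.1 (307 of 873), PSBO1 (372 of 999), LHCB2.3 (300 of 801), LHCA3 (315 of 822) and LHB1B2 (329 of 798). Whether a second window is a start of transcription was not tested.

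**Figure D1:**
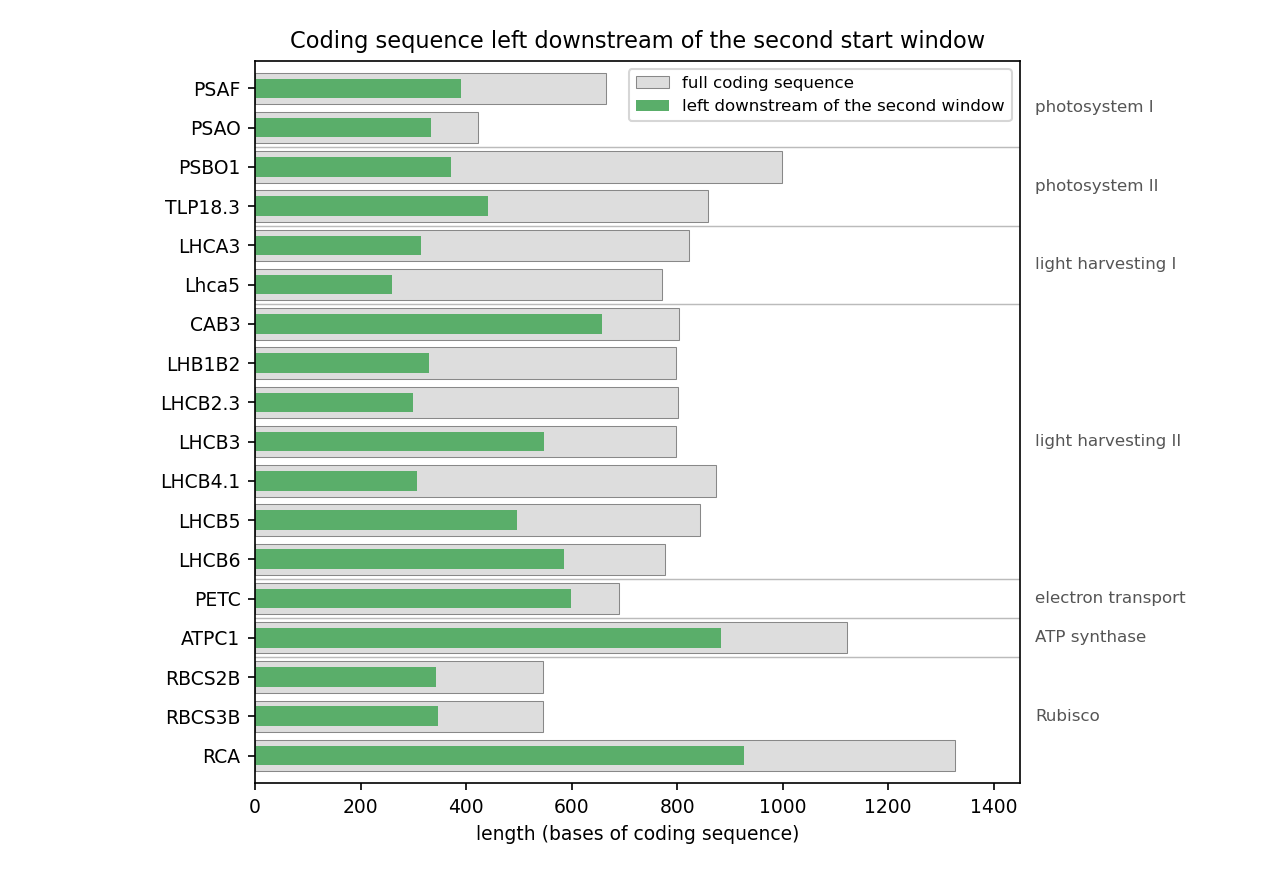
Length of the full coding sequence (grey bars) and of the part left downstream of the second start window (green bars), in bases, for the 18 photosynthesis genes by role. PETC keeps 599 of 690 bases, whereas Lhca5 keeps 259 of 771.

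The authors' deposited table lists a Pfam domain downstream of the second window in 12 of the 18 genes (66.7%), against 55.9% of all genes. In the antenna family the chlorophyll a-b binding domain was listed with an overlap value of 100 in CAB3 and LHCB6, 88 in LHCB3 and 79 in LHCB5. No domain was listed for LHCB2.3, LHCB4.1, LHCA3 and Lhca5. For LHB1B2 the authors' deposited table lists a phosphoglycerate mutase domain (overlap value 100) in place of the chlorophyll binding domain, although the gene is annotated as a chlorophyll binding protein. The authors' deposited table also lists the Rubisco small chain domain for RBCS2B and RBCS3B, and the ATP synthase domain for ATPC1 with an overlap value of 91. PETC is listed with both its Rieske domain and its cytochrome b6f domain, and RCA with its AAA ATPase domain. The domain of PSAF was listed at 74 and that of TLP18.3 at 72. PSAO and PSBO1 had no domain listed.

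The first comparison asked whether read levels of photosynthesis genes differed between far-red and white light. Levels are given in RPM. They were not divided by length, because reads mark 5′ ends, and each level is set against the level of the same gene in another library. At 45 min LHB1B2, PSBO1 and PSAF were furthest above their white light level and RBCS2B furthest below. No photosynthesis gene differed 2-fold between 45 min and white light (0 of 18), whereas 25.0% of all 6814 genes did, 14.1% higher and 10.9% lower. With median-of-ratios size factors in place of the table total, 1 gene, LHB1B2, passed 2-fold at 45 min. The median log2 ratio, taken after adding a pseudocount of 1, was 0.05 for the photosynthesis genes and -0.03 for all genes, with 10 of the 18 above 0, against 48.7% of all genes. At 90 min the count past 2-fold was again 0 of 18, against 28.2% of all genes, 15.8% higher and 12.4% lower, and the median log2 ratio was 0.05 against -0.00 for all genes. Above 0 at 90 min were 13 of the 18 (72.2%), against 50.0% of all genes.

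Because ratios scatter more in genes with few reads, the same counts were taken over the 290 genes with at least as many reads as Lhca5. That limit was chosen after seeing the data. The 290 include the 18 and had a median of 8733.5 reads, against 112756 in the 18, so depth was not matched. Of the 290 genes 4.14% differed 2-fold at 45 min, 3.1% higher and 1.03% lower, and 3.45% at 90 min, all higher. Above 0 were 50.0% of the 290 at 45 min and 52.1% at 90 min. The standard deviation of the log2 ratio over the 18 photosynthesis genes was 0.35 at 45 min and 0.19 at 90 min. Over the 290 genes it was 0.52 and 0.48.

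**Figure D2:**
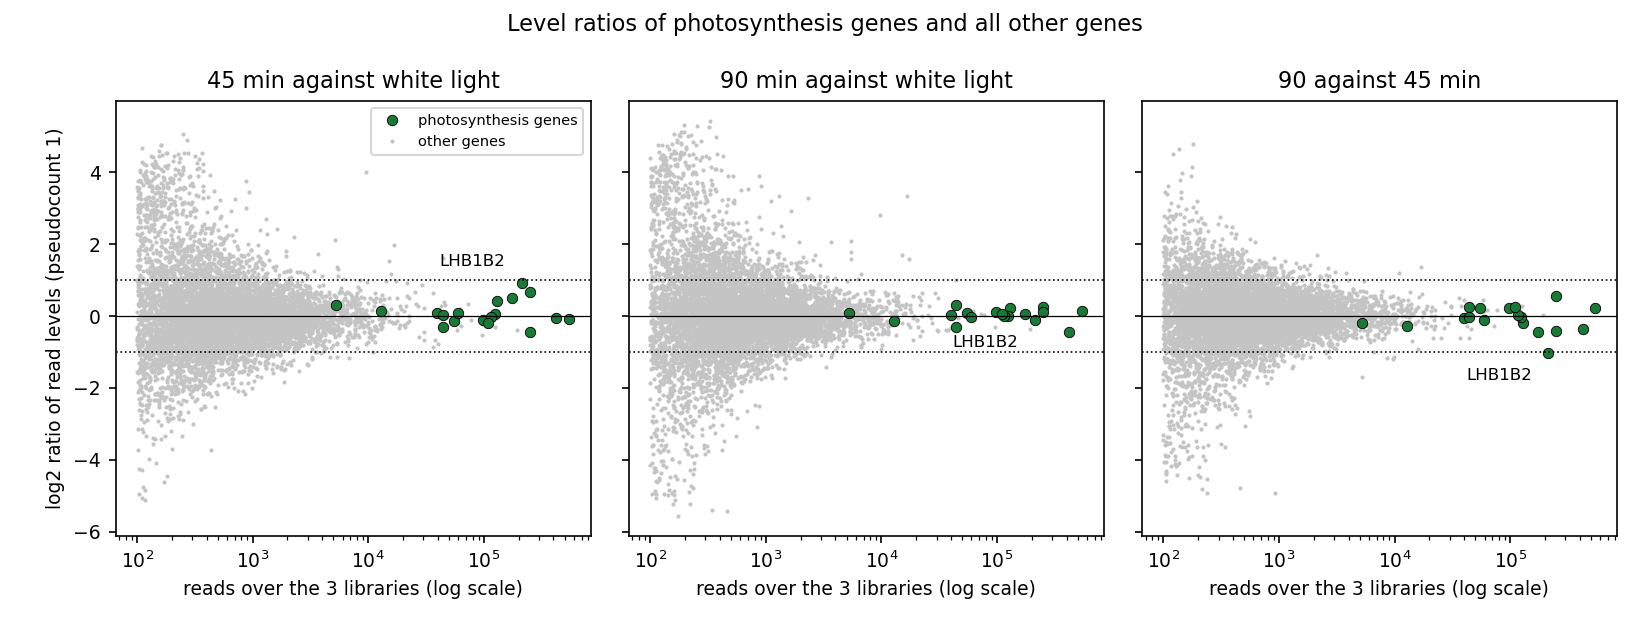
Log2 ratio of read levels (pseudocount 1) against the reads of a gene over the 3 libraries (log scale), for the photosynthesis genes (green circles) and all other genes (grey dots). Dotted lines mark 2-fold. In the 3 pairs of libraries 1 photosynthesis gene, LHB1B2 in 90 against 45 min, lies past a line, while genes with few reads scatter widely.

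Among the photosystem I genes, PSAF encodes the subunit that docks plastocyanin. PSAF (AT1G31330) had a level of 12573 RPM in white light, 17777 RPM at 45 min and 12966 RPM at 90 min. The 45 min library was thus the high one, 1.41-fold white light (95% counting interval 1.40 to 1.43), and the 90 min level was within 1.03-fold of white light. PSAO, a small subunit involved in balancing excitation between the photosystems, had 4703 RPM in white light, 4234 RPM at 45 min and 4950.3 RPM at 90 min. Its ratios to white light were 0.900 at 45 min and 1.05 at 90 min.

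For photosystem II, PSBO1 encodes the main extrinsic protein that stabilises the manganese cluster of water oxidation. PSBO1 (AT5G66570) levels were 16331 RPM in white light, 25929 RPM at 45 min and 19582 RPM at 90 min. It followed the same order as PSAF, with a ratio to white light of 1.59 (1.57 to 1.60) at 45 min and 1.20 (1.19 to 1.21) at 90 min. TLP18.3 (AT1G54780), a lumen protein of photosystem II repair, hardly differed between libraries, at 3228, 3413 and 3284 RPM. The sum of both genes was 1.96% of the table in white light, 2.93% after 45 min and 2.29% after 90 min.

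The antenna genes of photosystem I stayed within 1.23-fold of white light at both times. LHCA3 encodes one of the main antenna proteins, and its level was 3413 RPM in white light, 3514 RPM at 45 min and 4188 RPM at 90 min. Lhca5, a minor antenna protein that helps attach photosystem I to the NADH dehydrogenase-like complex, had 397, 487 and 423 RPM in the same order. The order of the libraries thus differed between the 2 genes, with LHCA3 highest at 90 min and Lhca5 highest at 45 min.

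The antenna of photosystem II gave the widest range. LHB1B2 (AT2G34420), which encodes a protein of the major trimeric antenna, had 13713 RPM in white light, 25981 RPM at 45 min and 12823 RPM at 90 min. Its 45 min level was 1.89-fold that of white light (1.87 to 1.92), the highest ratio of the list, while its 90 min level was 0.935 times that of white light. CAB3 encodes a protein of the same LHCB1 group, and its levels of 4935, 5222 and 4811 RPM lay within 1.06-fold of white light. The ratio at 45 min therefore differed between these paralogues, 1.89 (1.87 to 1.92) in LHB1B2 and 1.06 (1.04 to 1.08) in CAB3, by more than counting error.

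LHCB2.3, of the second protein group in the trimers, had 9101, 12244 and 10669 RPM in the same order and was highest at 45 min. LHCB3, the third trimer protein, stood at 39677 RPM in white light, 37906 RPM at 45 min and 29272 RPM at 90 min. It was the gene furthest below white light at 90 min, at a ratio of 0.738 (0.732 to 0.743). The monomeric antenna proteins connect the trimers to the reaction centre. LHCB4.1 had 8202, 7648 and 8901 RPM, and LHCB5 had 10309, 10658 and 10396 RPM. LHCB6 was lower in both far-red libraries, with 4281 RPM in white light, 3495 RPM at 45 min and 3438 RPM at 90 min. Summed over its 7 genes, this antenna held 9.02% of the table in white light, 10.3% after 45 min and 8.03% after 90 min.

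PETC encodes the Rieske iron-sulphur protein of the cytochrome b6f complex. Its levels were 1068 RPM in white light, 1182 RPM at 45 min and 977 RPM at 90 min, all within 1.11-fold of white light. ATPC1, the gamma subunit that rotates within the ATP synthase, was the steadiest at 45 min, with 9733 RPM in white light, 9577 RPM at 45 min and 9819 RPM at 90 min.

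Scaled to the table total, the Rubisco genes lay below white light at 45 min, whereas PSAF and PSBO1 lay above it. RBCS2B (AT5G38420) had 22579 RPM in white light, 16545 RPM at 45 min and 24275 RPM at 90 min. The 45 min library was the low one, at 0.733 times white light (0.725 to 0.740). RBCS3B, its neighbour in a tandem array of small subunit genes, had 44934, 42385 and 49870.5 RPM in the same order, which is 0.943 times white light at 45 min and 1.11 times at 90 min. RCA encodes Rubisco activase, which frees the enzyme from inhibitory sugar phosphates, and its levels were 9517, 8310.2 and 9827 RPM. On this scale all 3 genes were lowest at 45 min, as were PSAO, LHCB4.1 and ATPC1. For RBCS3B this rests on the scaling. Its log2 ratio at 45 min was -0.084, and median-of-ratios size factors raise ratios in that pair by 0.087. The 3 Rubisco genes together held 7.70% of the table in white light, 6.72% after 45 min and 8.40% after 90 min.

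**Figure D3:**
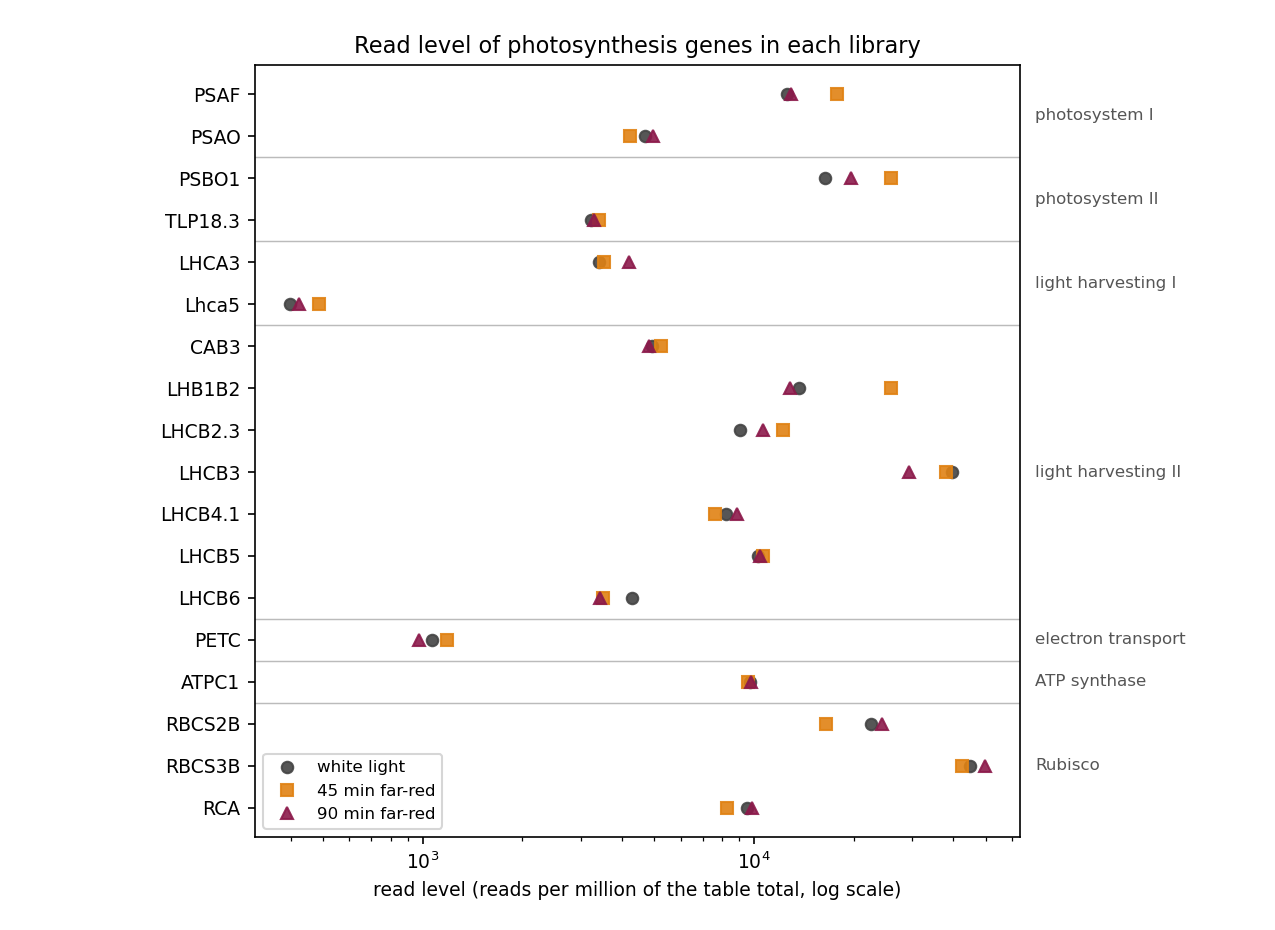
Read level of each photosynthesis gene in RPM (log scale) in white light (circles), 45 min (squares) and 90 min (triangles) of far-red, 1 library each, by role. LHB1B2, PSBO1 and PSAF stand highest at 45 min, RBCS2B stands lowest there, and ATPC1 and LHCB5 nearly coincide in all 3 libraries.

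The far-red libraries were then compared with each other. Between 90 and 45 min, 1 of 18 photosynthesis genes differed 2-fold (5.56%), against 17.0% of all genes. This was LHB1B2, lower at 90 min with a log2 ratio of -1.02 and a ratio of 0.494 (0.488 to 0.499), so it lay just past the limit. Over all genes 8.66% were 2-fold higher and 8.38% 2-fold lower. The next genes in the same direction were PSAF (log2 ratio -0.46), PSBO1 (-0.40) and LHCB3 (-0.37). RBCS2B was furthest in the other direction, with a log2 ratio of 0.55. The median over the 18 genes was -0.05, against 0.03 over all genes, and 7 of the 18 were above 0, against 52.3% of all genes. Over the 290 genes with many reads, 2.07% differed 2-fold between these libraries, 0.69% higher and 1.38% lower. LHB1B2 overlaps 2 other annotated genes and has near-identical paralogues. Leaving out such genes, alternatives chosen after seeing the data, removes LHB1B2 itself, so the 0 then past 2-fold follow from the removal.

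The second readout was the share of window reads that fell in the second window. Two-sided Fisher's exact tests were run on the window reads of all genes with at least 20 of them in both libraries, with Benjamini-Hochberg adjustment, and a call needed both an adjusted p under 0.05 and 10 percentage points of change. All 18 photosynthesis genes were tested, on 1237 to 200955 window reads per library. At 45 min 3 of 18 genes were called (16.7%), TLP18.3 and RBCS2B higher and LHCB6 lower, against 65.9% of all 6095 genes tested, 31.9% higher and 34.1% lower. At 90 min 5 of 18 were called (27.8%), all higher, against 68.1% of 6094 genes, 37.6% higher and 30.6% lower. These were TLP18.3, CAB3, LHCB2.3, LHCB4.1 and LHCB5.

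Over the 290 genes with many reads the percentages called were 36.6% at 45 min, 27.6% higher and 8.97% lower, and 34.8% at 90 min, 31.0% higher and 3.79% lower. At these depths the test alone says little, since 16 of the 18 photosynthesis genes had an adjusted p under 0.05 at each time by Fisher's exact test, as did 74.1% and 76.1% of all genes tested and 85.2% and 82.1% of the 290 genes. The size of the change is therefore given below, with its 95% interval for counting error. Just inside the limit of 10 points were LHCB5 at 90 min (10.0 points, 9.37 to 10.7) and LHCB6 at 45 min (-10.0 points, -11.0 to -9.12). Just outside were RBCS3B at 45 min (9.59 points, 9.27 to 9.91) and PSAO at 90 min (9.58 points, 8.73 to 10.4).

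In the 90 min library the second-window share was above white light in 15 of the 18 genes, with a median change of 5.01 points. Over all genes tested it was above white light in 53.8% with a median of 2.42 points, and over the 290 genes with many reads in 74.5% with a median of 5.87 points. At 45 min the share was above white light in 12 of the 18 genes (66.7%), against 48.8% of all genes tested and 65.9% of the 290. The median change was 2.15 points, against 0.00 points over all genes and 4.33 points over the 290. Pooled over the 18 genes, second windows took 26.6% of window reads in white light, 31.2% after 45 min and 31.4% after 90 min. Pooled over all other genes the figures were 36.7%, 39.5% and 41.5%. Pooled over the 272 other genes with many reads they were 34.2%, 39.0% and 40.0%.

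Within photosystem I, the PSAF share was 29.9% in white light, 24.9% after 45 min and 33.8% after 90 min, so the far-red libraries lay on either side of white light. PSAO had shares of 16.6%, 21.3% and 26.2% in the same order and was highest at 90 min. The PSBO1 share differed little, at 36.1%, 39.4% and 34.5%. TLP18.3 stood out with 52.3% of 10779 window reads in white light, 74.0% of 14588 after 45 min and 72.8% of 13117 after 90 min. The change was 21.7 points (20.5 to 22.9) at 45 min and 20.6 points (19.3 to 21.8) at 90 min. Its first window had 1496 RPM in white light, 869 RPM at 45 min and 864 RPM at 90 min, and its second window 1637, 2467 and 2315 RPM, so its windows differed in opposite directions while its total stayed within 1.06-fold. TLP18.3 had already been named for its large change in earlier results of these data, so this change is no independent support.

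In the antenna of photosystem I the shares of LHCA3 were 31.0% in white light, 27.5% after 45 min and 31.7% after 90 min. Those of Lhca5 were 9.05%, 11.1% and 12.9%, and its change at 45 min was within counting error (2.06 points, -0.11 to 4.14).

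The antenna of photosystem II, 7 of the 18 genes, supplied 4 of the 5 genes called at 90 min. Over all genes tested 68.1% were called then, and over the 290 genes with many reads 34.8%. CAB3 had a share of 7.82% in white light, 9.94% after 45 min and 19.1% after 90 min. Its change at 90 min was 11.3 points (10.56 to 12.03), with 3215 of 16818 window reads in the second window at 90 min, against 1157 of 14790 in white light. LHCB4.1 had shares of 21.1%, 29.9% and 36.5%, a change of 8.79 points at 45 min and 15.5 points (14.7 to 16.2) at 90 min. In LHCB5 the shares were 20.4%, 22.6% and 30.5%. All of these genes ordered the libraries alike, lowest in white light and highest at 90 min.

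LHCB2.3 had a share of 39.3% in white light, 37.4% after 45 min and 49.5% after 90 min, a change of 10.2 points (9.44 to 10.9) at 90 min. LHB1B2 was likewise lowest at 45 min and highest at 90 min, with 24.7%, 18.7% and 29.4%. LHCB3 had 9.20%, 15.6% and 17.9%, below the limit at both times. LHCB6 was the exception of the antenna, with 22.4% in white light, 12.3% after 45 min and 18.7% after 90 min. Its second window held 2878 of 12871 window reads in white light, 1582 of 12838 after 45 min and 2220 of 11901 after 90 min. LHCB6 overlaps 2 other annotated genes that were not analysed here.

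PETC had a share of 11.2% in white light, 12.6% after 45 min and 17.6% after 90 min, and its change at 45 min was within counting error (1.40 points, -0.13 to 2.89). ATPC1, like TLP18.3, had most of its window reads in the second window in every library, 82.3% in white light, 91.3% after 45 min and 87.7% after 90 min. Its first window had 1641, 798 and 1158 RPM, and its second window 7653, 8372 and 8247 RPM. The lower level of the first window at 45 min, with a log2 ratio of -1.04, thus did not show in the total of the gene.

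The small subunit genes were highest at 45 min in this readout. RBCS2B had a share of 27.9% in white light, 40.4% after 45 min and 22.6% after 90 min, and RBCS3B 27.9%, 37.5% and 28.0%. The change at 45 min was 12.5 points (12.04 to 13.01) in RBCS2B and 9.59 points in RBCS3B. In RBCS2B the first window differed most, with 16017 RPM in white light, 9483 RPM at 45 min and 18480.4 RPM at 90 min, while the second window had 6185, 6423 and 5407 RPM. RCA had shares of 18.3%, 16.6% and 19.7%, and its change was 1.39 points (0.64 to 2.14) at 90 min.

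**Figure D4:**
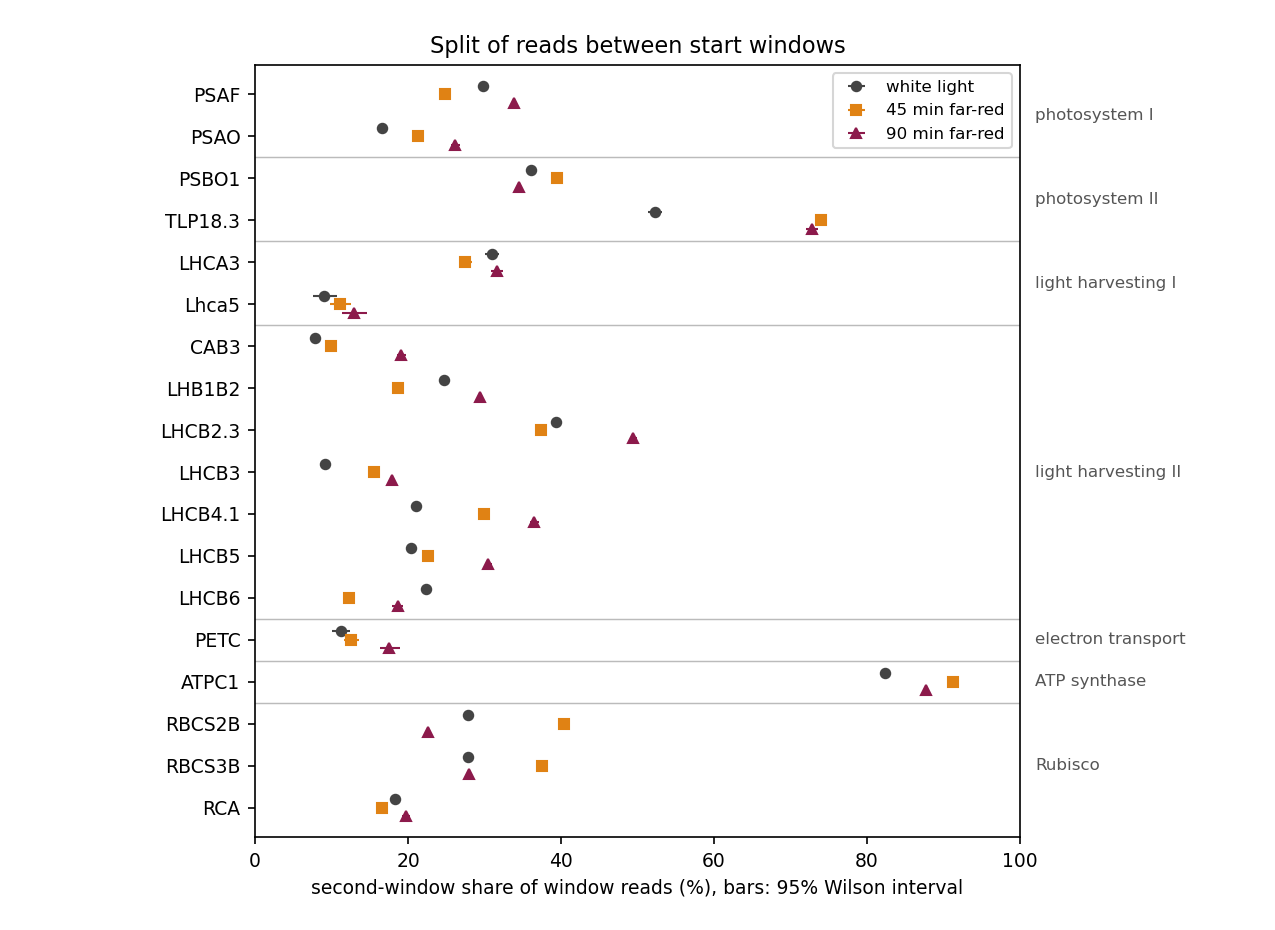
Second-window share of window reads (%) for each photosynthesis gene in white light (circles), 45 min (squares) and 90 min (triangles), with 95% Wilson intervals as bars, by role. TLP18.3 lies near 73% in both far-red libraries against 52.3% in white light, 6 of the 7 antenna genes of photosystem II are highest at 90 min, and both RBCS genes are highest at 45 min.

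Between 90 and 45 min, 3 of 18 genes were called (16.7%) by Fisher's exact test, against 57.5% of 6357 genes tested, 34.6% higher and 22.8% lower. LHB1B2 was higher at 90 min by 10.7 points (10.2 to 11.1) and LHCB2.3 by 12.1 points (11.4 to 12.7). RBCS2B was lower by 17.7 points, with a change of -17.7 points (-18.2 to -17.3). All 3 belong to the families with near-identical copies. Leaving those families out, an alternative chosen after seeing the data, removes these 3 genes, so the 0 genes then called follow from the removal. The median change over the 18 genes was 4.53 points, against 2.58 points over all genes. Over the 290 genes with many reads, 27.2% were called in this pair, 17.2% higher and 10.0% lower. An adjusted p under 0.05 alone was reached by 17 of the 18 photosynthesis genes, 67.1% of all genes tested and 85.2% of the 290.

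Levels of the windows were also compared one by one, in RPM of the table total. At 90 min the first window was above white light in 5 of the 18 genes and the second window in 16 of the 18, the exceptions being LHCB6 and RBCS2B. Over the 290 genes with many reads the first window was above white light in 32.8% and the second in 69.3%, and over all genes in 45.9% and 51.9%. At 45 min the counts were 9 and 15 of the 18, against 40.7% and 66.6% of the 290 genes and 46.6% each of all genes. The median log2 ratio at 90 min was -0.13 for first windows and 0.42 for second windows. Over the 290 genes with many reads these medians were -0.22 and 0.27, and over all genes -0.11 and 0.07. Past 1 on the log2 scale against white light, apart from the first window of ATPC1, were the second window of CAB3 at 90 min, with 779 RPM against 336 RPM in white light (log2 ratio 1.21), and that of LHCB6 at 45 min, with 362 RPM against 836.5 RPM in white light (log2 ratio -1.21). The first window of LHB1B2 at 45 min also lay past it, with 20238 RPM, against 9508 RPM in white light (log2 ratio 1.09).

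**Figure D5:**
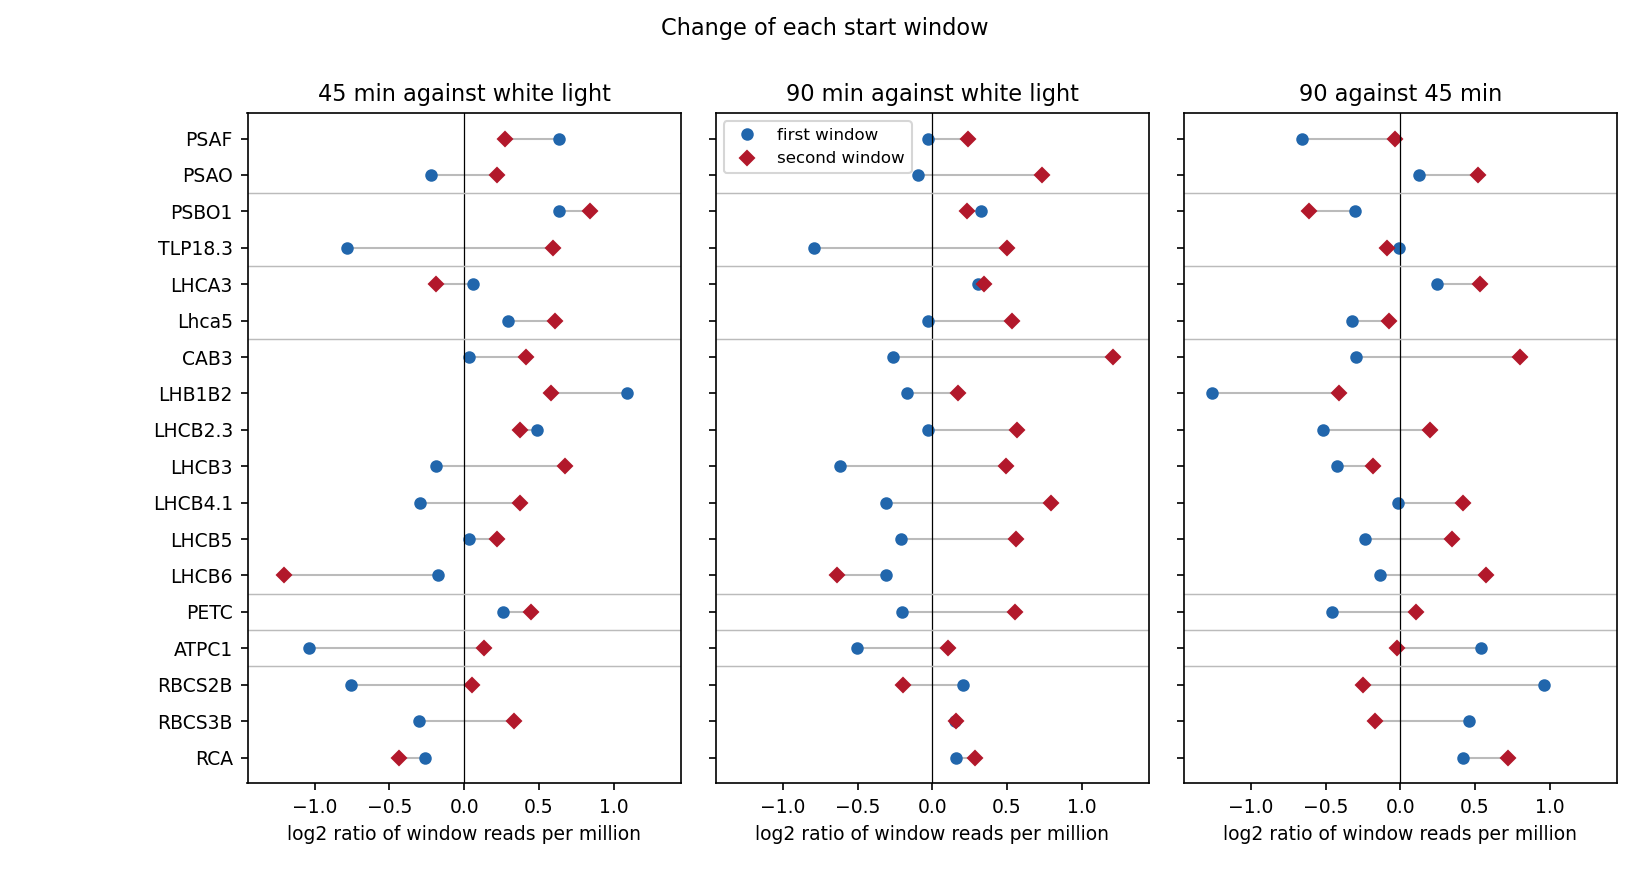
Log2 ratio of first-window (circles) and second-window (diamonds) levels in RPM for each photosynthesis gene in the 3 pairs of libraries, 45 min against white light, 90 min against white light and 90 against 45 min. At 90 min 16 of 18 second windows and 5 of 18 first windows lie above white light, against 69.3% and 32.8% in the 290 genes with many reads, and 51.9% and 45.9% over all genes.

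Reads outside both windows enter the levels but not the shares. They made up a median of 7.52% of the reads of a photosynthesis gene in white light, 4.40% after 45 min and 6.27% after 90 min. The medians in the same order were 13.8%, 13.8% and 13.9% over the 290 genes with many reads and 8.11%, 20.8% and 14.7% over all genes. RCA was far above the rest, with 44.5%, 48.1% and 39.0%, so its share leaves out a large part of its reads. The lowest values were those of RBCS2B in white light (1.67%) and at 90 min (1.59%), and of PSAO at 45 min (1.53%).

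Other genes of photosynthesis were taken from lists by role. Of 19 Calvin cycle genes 6 were in the table. Of these 6, 1 (16.7%) was 2-fold higher at 45 and at 90 min, the transketolase gene AT2G45290. Over all genes 14.1% were 2-fold higher at 45 min and 15.8% at 90 min. AT2G45290 had 14.0 RPM in white light (48 reads), 36.8 RPM at 45 min and 33.7 RPM at 90 min. These 6 genes had a median log2 ratio of 0.24 at 45 min and 0.06 at 90 min. Of 25 chlorophyll synthesis genes 15 were in the table, with medians of -0.10 and -0.21. Of these 15, 1 (6.67%) was 2-fold lower at 45 min, against 10.9% of all genes. This was PORA, which encodes a light-dependent protochlorophyllide oxidoreductase, at 14.2 RPM against 33.1 RPM in white light (62 against 114 reads).

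Of 16 genes for assembly, repair and regulation of the photosystems 5 were in the table, with median log2 ratios of -0.36 at 45 min and -0.44 at 90 min. Of these 5 genes, 1 was 2-fold lower at 90 min, against 12.4% of all genes. This was TAP38, the phosphatase that returns the antenna to photosystem II, with 89.9 RPM against 190 RPM in white light. Of 3 regulators, GPRI1 was in the table, the transcription factor also known as GLK1 that activates antenna and chlorophyll genes. It had 217 RPM in white light, 337 RPM at 45 min and 182 RPM at 90 min, and was highest at 45 min.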

How the data were processed

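PEAT libraries of 3 seedling samples, 1 per light treatment, were compared in 3 pairs, grouped by the treatment in the labels. The authors deposited raw counts per transcript, per first start window and per second start window, per the file headers, as 14437 entries for 9617 transcripts of 6814 genes. Each transcript has at least 100 reads, and each window at least 10% of them. HISAT2 2.0.5, SAMtools 0.1.19, bedtools 2.17.0, cutadapt and FastQC and the builds TAIR9 and TAIR10 are named in the submitters' processing notes. The widths of the windows, the handling of multiply mapped reads and duplicate removal are not given in the sources used here. The lengths of coding sequence and Pfam overlap values are the authors', per the file headers.

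For each gene the transcript with the most reads was kept and the reads of its second windows were summed. Position and domains were taken from the second window with the most reads. Levels are reads per 1000000 table reads. The table is a selection, so its totals are not library depth. Fold changes were called at 2-fold with no test. Shares were compared with two-sided Fisher's exact tests (SciPy 1.17.1) over all genes. Shares have Wilson intervals, changes Newcombe intervals and ratios exact binomial intervals, all at 95%. All cover counting error only, since each condition has 1 library. Reads carry no molecular identifiers and duplicate removal is not given. Copies of 1 molecule may thus be counted more than once, and the intervals may be too narrow. Symbols and overlaps came from RefSeq (18 of 18 matched). Each role's most-read gene and all called genes were named in full. Members and lists were chosen with earlier results of these data known. Alternatives covered the pseudocount, scaling, windows, limits, isoform and overlapping genes.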

Additional observations from a re-analysis of the deposited data

Results flagged for a closer look

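Between 90 and 45 min, 3 of 18 photosynthesis genes (16.7%) passed Fisher's exact test with at least 10 points of change in second-window share. Over all 6357 genes tested 57.5% did, and over the 290 genes with many reads 27.2%. The changes of the 3 genes were 10.7 points in LHB1B2, 12.1 points in LHCB2.3 and -17.7 points in RBCS2B. All 3 belong to families with near-identical copies, and the part of read assignment in these differences was not tested. Reads outside both windows were above white light by at least 5 points in 1 gene, LHCB4.1, with 17.1% at 90 min (95% Wilson interval 16.8% to 17.5%) and 11.9% at 45 min, against 10.4% in white light. This was 1 of 18 photosynthesis genes at 90 min (5.56%), against 38.0% of all genes and 16.6% of the 290 genes with many reads, and 0 of 18 at 45 min, against 53.2% and 20.3%. Outside reads were lower by at least 5 points in PETC at 45 min, with 13.8% against 21.4% in white light, and in RCA at 90 min, with 39.0% against 44.5% in white light. Each is 1 of 18 photosynthesis genes (5.56%). At 45 min 17.9% of all genes and 16.2% of the 290 were lower by as much, and at 90 min 22.9% and 14.1%.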

How the results depend on the processing

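No paired analysis was possible because there is 1 library per condition, which also prevents leaving out replicates. Of 114 values recomputed for the photosynthesis genes under alternatives, 87 stayed close to the reported ones and 27 moved, and the cause was not tested. Many of the 87 could hardly have moved. Every gene of the list has 1 second window and at least 1237 window reads per library, and medians do not depend on the limits for a call. The 87 are therefore no measure of how robust the results are. With median-of-ratios size factors, which raised the median of all genes by 0.09 at 45 min, LHB1B2 passed 2-fold there (1 gene, against 24.8% of all genes), and the median log2 ratios became 0.13 (45 min), 0.0959 (90 min) and -0.0844 (90 against 45 min). Scaling without the 10 genes with the most reads gave medians of 0.0695 (45 min) and -0.0770 (90 against 45 min). First-window reads, scaled to their own total, gave 1 gene past 2-fold at 45 min, against 44.9% of all genes, and medians of -0.000992 (90 min) and -0.16 (90 against 45 min). Scaled to the table total instead, an alternative chosen after seeing the data, first-window reads gave 2 genes at 45 min, LHB1B2 higher and ATPC1 lower, against 44.4% of all genes, and medians of -0.0710 (45 min), -0.13 (90 min) and -0.19 (90 against 45 min). A limit of 1.5-fold gave 2 genes at 45 min, against 46.9% of all genes. A limit of 20 points left 1 gene of changed share at 45 min, 1 at 90 min and 0 between them, against 46.9%, 50.6% and 38.1% of all genes tested. The next 2 alternatives were also chosen after seeing the data. Without genes that overlap another, 11 genes remained, with 0 past 2-fold between 90 and 45 min and medians of 0.0738 (90 min) and 0.0360 (90 against 45 min). Of these 11, the share was called in 1 gene at 45 min, with a median change of 3.35 points, in 3 at 90 min and in 1 between them. Without near-identical families (13 genes), 0 genes passed 2-fold between 90 and 45 min, and 3 shares at 90 min and 0 between them were called. These 2 alternatives remove LHB1B2, the only gene past 2-fold between 90 and 45 min. The near-identical families also hold all 3 genes called in that pair, so these counts of 0 follow from the removal. Dropping genes with counts identical to another gene removed none of the 18. The lowest-numbered isoform was the transcript already used.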

Other observations

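The first windows of LHCB5 and LHCB2.3 hold the same number of reads at 45 min, 32638 each, while they differ at 90 min (26076 and 21518) and in white light (25088 and 18301). The isoforms of PETC in the table share their first window but differ in the second, which leaves 599 of 690 bases in one and 618 of 633 bases in the other.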
